A study of Bos taurus with 8 samples.

Results

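SERPINB4 and SERPINB1 are serpins of clade B, measured here in neutrophils from the jugular blood of Holstein Friesian dairy cows around calving. They are represented by all non-control array probes whose accession a RefSeq table names as SERPINB4 (NM_001102322, 4 probes) or SERPINB1 (NM_001206610, 1 probe), which makes 2 genes of 12639 with a symbol and 5 probes of 43653. Both genes were selected on their array intensities at C+7 against C-14 in an earlier look at these same arrays, so the differences below are descriptions and carry no test. The C+7 samples were taken 7 days after actual calving, and the C-14 samples 14 days before the expected date. Each time has 4 arrays of neutrophil RNA labelled with Cy3 on an Agilent bovine array. All cows were periparturient Holstein Friesian females, no treatment is named in the labels, and how the neutrophils were isolated is not given in the sources used here.

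Serpins are protease inhibitors that offer an exposed loop as bait: the protease cuts the loop, the serpin springs into a new shape, and the protease is left trapped and distorted. Clade B serpins lack a classical signal peptide and work mostly inside the cell, where they guard it against proteases that leak from granules. In humans SERPINB4 is known from squamous epithelium and inhibits chymotrypsin-like proteases such as cathepsin G, and SERPINB1, also called leukocyte elastase inhibitor, is abundant in human and mouse neutrophils, where it inhibits elastase, cathepsin G and proteinase 3. The bovine genes carry RefSeq's names, and whether bovine SERPINB4 is the counterpart of the human gene was not settled here.

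The series text names 3 cows for 4 arrays at each time, and the labels do not say which cow gave which array, so p-values over arrays measure only the spread between these arrays. The arrays of each time sat on a slide of their own (2 slides, 0 with both times), so slide and time cannot be told apart. Signal was low: probes well above background, a call of the scanner software, numbered 2225, 2290, 2759 and 390 on C+7 replicates 1 to 4, and 4177, 2380, 4493 and 780 on C-14 replicates 1 to 4. The fourth array of each time was the dimmest, and the 6 arrays with over 2000 such probes are called the brighter arrays. This set was chosen with earlier results of these data known. It leaves out C+7 replicate 4, where no SERPINB4 probe was well above background. In these bulk samples, fewer cells of a type and less RNA per cell cannot be told apart. Of the 12 neutrophil markers listed, 11 were on the array and 8 were well above background on at least 1 array, among them CXCR2, S100A9 and S100A12, while CD177, MPO and S100A8 never were.

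SERPINB4 was bright on 3 of the C+7 arrays and dark on every C-14 array. Its brightest probe, A_73_P064566, had background-subtracted intensities of 481, 706, 546 and -0.377 on C+7 replicates 1 to 4, against -12.6, 3.17, 0.338 and -4.93 on C-14 replicates 1 to 4. The dark C+7 value belongs to replicate 4, the array with 390 probes well above background, and it overlaps the C-14 values. The software's own error, which grows with the signal, was 48.2, 70.8 and 54.8 on the 3 brighter C+7 arrays. It is given per array and does not measure the spread between arrays. The mean was 578 ± 116 on the brighter C+7 arrays and -3.04 ± 8.43 on the brighter C-14 arrays (SD, n = 3 each).

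A second SERPINB4 probe, A_73_P056111, had the same arrays bright at lower intensity. Its background-subtracted intensities were 83.7, 107, 111 and 2.05 on C+7 replicates 1 to 4, and 4.98, 5.43, 0.521 and 4.2 on C-14 replicates 1 to 4. Both probes were well above background on 3 C+7 arrays and on 0 C-14 arrays. A weaker call of the software, signal significantly above background, was also made for the second probe on C-14 replicates 1, 2 and 4. Those signals, 4.2 to 5.43, lay below the highest negative control spots of the same arrays, 35.9, 14.4 and 7.59.

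The other SERPINB4 probes were not well above background on any array. A_73_P064561 had 0.500, -0.389, 4.06 and 11.0 on C+7 replicates 1 to 4, and 4.27, 3.87, 0.585 and 4.84 on C-14 replicates 1 to 4. A_73_P042048 had 0.797, -2.96, -2.15 and -2.57 on C+7 replicates 1 to 4, and -2.18, 3.98, 2.63 and 0.369 on C-14 replicates 1 to 4. On both probes the times overlap, so of 4 probes for the same accession, 2 separated the brighter arrays by time and 2 did not. No probe sequence was used here, so whether any of the 4 binds transcripts of related serpins was not tested.

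**Figure D1:**
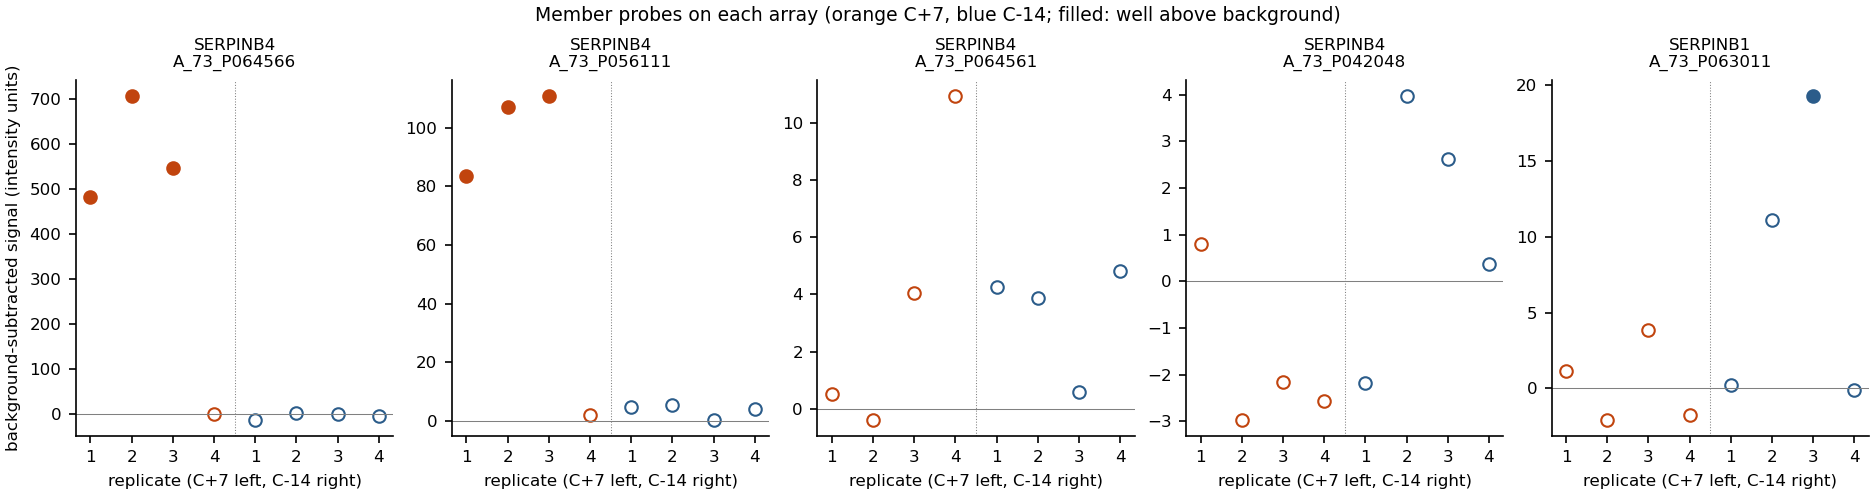
Background-subtracted intensity (y axis, intensity units, a scale of its own in each panel) of the 5 member probes on each array, with the 4 C+7 arrays left and the 4 C-14 arrays right. Filled points are well above background; SERPINB4 A_73_P064566 reaches 481 to 706 on 3 C+7 arrays, and SERPINB1 is filled on 1 C-14 array alone.

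SERPINB1 was near background almost everywhere. Its probe, A_73_P063011, had background-subtracted intensities of 1.16, -2.06, 3.82 and -1.72 on C+7 replicates 1 to 4, and 0.232, 11.1, 19.3 and -0.111 on C-14 replicates 1 to 4. It was well above background on C-14 replicate 3 alone, the array with the most such probes, where negative control spots reached at most 5.92. On C-14 replicate 2 the 11.1 lay below the highest negative control spot of that array, 14.4. The means were 0.301 ± 2.76 on C+7 arrays and 7.63 ± 9.36 on C-14 arrays (SD, n = 4 each), and the times overlap. With 1 probe that was well above background on 1 of 8 arrays, a fold between the times was not computed.

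The processed intensity, which the software derives from the subtracted one, is set to a lowest value where the signal is dim, and on 1 array it was changed further. On C-14 replicate 3 it included a surface correction, and the share of spots at the lowest processed intensity was 0.00228% there, while it was 73.4 to 80.4% on the remaining arrays. SERPINB1 on that array had a processed intensity of 1.96, or 0.102 times its subtracted value, so its highest subtracted reading became its lowest processed one. The dark SERPINB4 probes A_73_P064561 and A_73_P042048 moved the other way there, to processed intensities of 52.0 and 61.7, or 88.9 and 23.5 times the subtracted values. For the SERPINB4 probes bright at C+7, processed and subtracted intensities were equal on the brighter C+7 arrays.

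**Figure D2:**
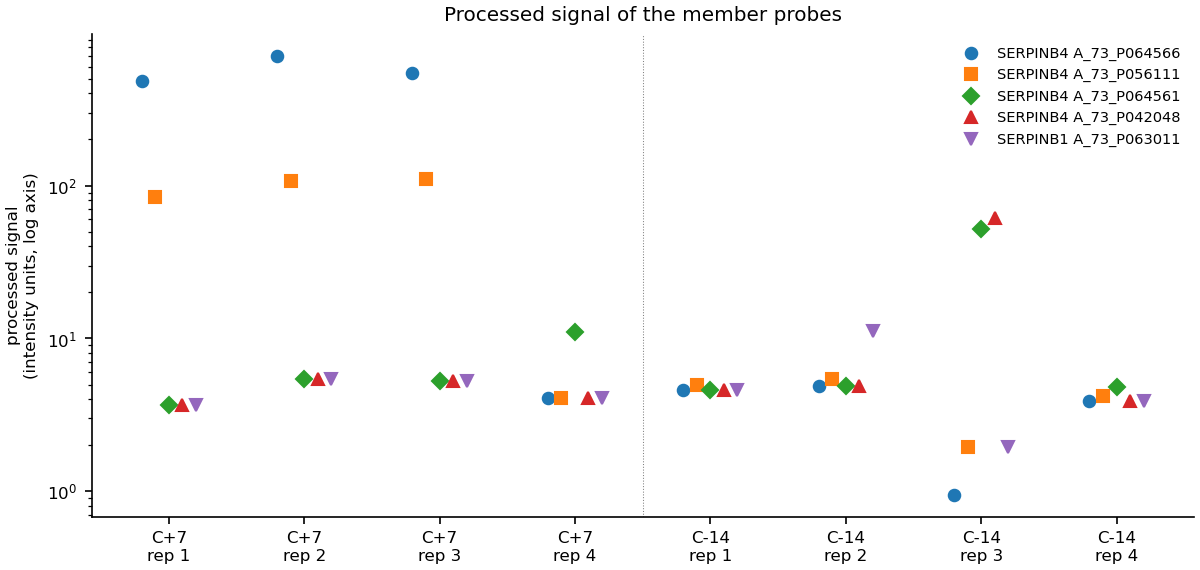
Processed intensity (y axis, log axis) of the 5 member probes on the 4 C+7 arrays (left) and the 4 C-14 arrays (right). On C-14 replicate 3 the probes spread from below 1 to 61.7, while on the other C-14 arrays none exceeds 11.1.

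Differences were put on a log2 scale in 2 ways. On the 6 brighter arrays, subtracted intensity was divided by the 75th percentile of its array and raised to a common floor at -3.54, so a time at the floor gives a lower limit. SERPINB4 A_73_P064566 had scaled log2 values of 0.77, 0.92 and 0.83 on the C+7 arrays and lay at the floor on the 3 C-14 arrays. The times did not overlap on these arrays, which was also so for 10.3% of the tested probes (higher at C+7, and 15.5% lower). The difference, C+7 minus C-14, was 4.38, that is at least 20.8-fold from the common floor and at least 43.5-fold from each array's own. For A_73_P056111 the values at C+7 were -1.75, -1.81 and -1.47, a difference of 1.86, or at least 3.64-fold. With C-14 replicate 4 added the floor rose, and the differences were 1.62 for A_73_P064566 and 0 for A_73_P056111. SERPINB1 lay at the floor on all 6 arrays, so its difference of 0 is not a measurement.

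On all 8 arrays, with processed intensity, SERPINB4 A_73_P064566 averaged -1.07 ± 2.04 at C+7 and -7.69 ± 2.90 at C-14 (log2, SD, n = 4 each), a difference of 6.62. C-14 replicate 3, the array with the surface correction, was the lowest at -11.6, and without it the difference was 5.30. C+7 replicate 4 is itself at its array's lowest processed intensity, so the 6.62 is no lower limit and no fold is given. With subtracted intensity and a common floor on the same 8 arrays, the differences were 1.28 for A_73_P064566 and 0 for A_73_P056111. On the processed scale the times did not overlap for A_73_P064566, but C+7 replicate 4 (-4.09) and C-14 replicate 4 (-4.84) both lay at the lowest processed intensity of their array, where values have no order. Of the 470 probes tested on 8 arrays, which do not include SERPINB4, 0.851% were higher at C+7 without overlap and 0.426% lower. With processed intensity A_73_P056111 differed by 4.38, with its C+7 replicate 4 value also at the lowest, and the other SERPINB4 probes by 0.27 and -0.07. SERPINB1 differed by 0.88, by -0.28 without C-14 replicate 3, the array with the surface correction, and by -0.15 without C+7 replicate 4. The direction for SERPINB1 therefore rests on single arrays.

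For comparison, limma was run over all probes well above background on every array of at least 1 time. On the 6 brighter arrays, 112 of 2204 probes (5.08%) passed an adjusted p of 0.05, 39 higher at C+7 (1.77%) and 73 lower (3.31%), but 7 passed without C+7 replicate 2 and 4 without C+7 replicate 3, and 66 and 62 without C-14 replicate 3 or C+7 replicate 1. On all 8 arrays 0 of 470 passed with limma (0%), with 7 at an unadjusted p under 0.05. Being well above background on every brighter C+7 array and on no C-14 array, as both SERPINB4 probes were, was found for 21 of the 2204 probes (0.953%). As this contrast chose SERPINB4, nothing is read from that share about the gene.

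**Figure D3:**
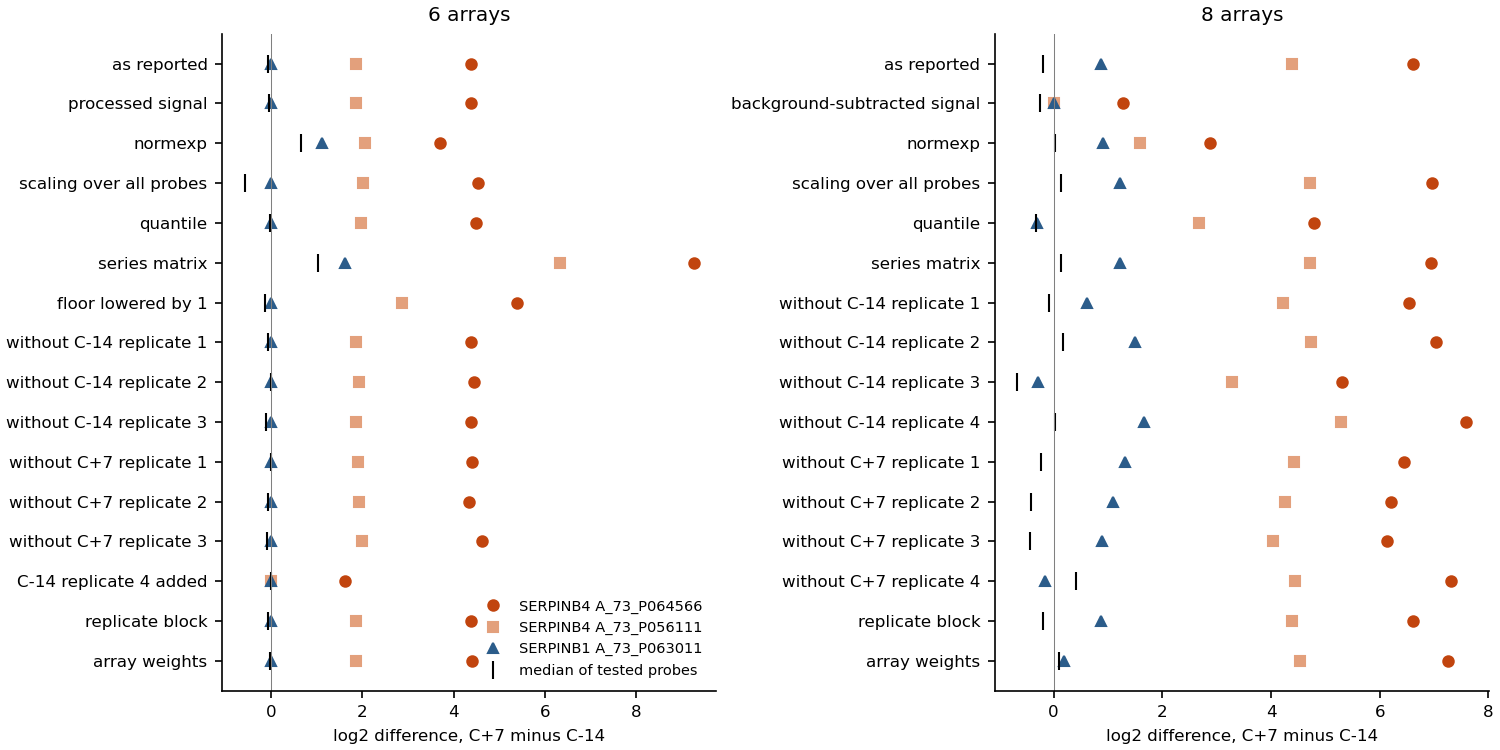
Log2 difference, C+7 minus C-14 (x axis), of both bright SERPINB4 probes and of SERPINB1 under each way of processing (rows), with the median of all tested probes as a tick, on the 6 brighter arrays (left) and all 8 arrays (right). SERPINB4 A_73_P064566 stays above 0 throughout, between 1.62 and 9.25 on 6 arrays, while SERPINB1 lies on both sides of 0 on 8 arrays.

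Bovine clade B genes lie in clusters. In the RefSeq gene order SERPINB1 is the last of 5 genes that start with SERPINB6 on chromosome 23, and SERPINB4 has no chromosome in that table. Of 11 other clade B genes listed, 7 were on the array with 16 probes, and none had a tested probe. SERPINB6, which in humans inhibits cathepsin G and other proteases inside cells, was the one of these well above background on any array. Its probe A_73_121474 had -1.96, 6.28, 8.0 and 0.421 on C+7 replicates 1 to 4, and 18.3, 25.7, 20.2 and 6.12 on C-14 replicates 1 to 4, with 2 C-14 arrays well above background. A second of its 6 probes, A_73_P413411, was well above background on C-14 replicate 3 alone, and the other 4 never were. SERPINB1, at the far end of that cluster, was above background on C-14 replicate 3 too.

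A gene without a name, LOC511106, is the 7th of 12 genes between SERPINB5 and SERPINB10 on chromosome 24, and it was chosen for mention after its values were seen. Its probe A_73_P031306 had 75.8, 170, 121 and -8.46 on C+7 replicates 1 to 4, and -0.257, 5.2, -0.945 and 1.63 on C-14 replicates 1 to 4. The same 3 C+7 arrays were bright as for SERPINB4, with a difference of 2.08 on the 6 brighter arrays, at least 4.23-fold. Its other probe stayed below that call on all 8 arrays.

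Among 1395 named genes tested on the 6 brighter arrays, likeness to SERPINB4 A_73_P064566 was measured as the root mean square difference of log2 profiles, each centred on its mean. The closest was ARPC1B, a subunit of the actin-branching Arp2/3 complex, at 0.403. Next came HP, which codes for the haemoglobin-binding protein haptoglobin, at 0.447, and LTF, the iron-binding granule protein lactoferrin, at 0.60. SHISA5, an endoplasmic reticulum protein, followed at 0.642, and ALPL, an alkaline phosphatase, at 0.803. The second SERPINB4 probe stood at 1.26, at rank 21, and LOC511106 at 1.16, at rank 16. All these genes had signal on the 3 C+7 arrays and lay at the floor on C-14 replicates 1 and 2. The measure thus largely follows the size of the C+7 signal over the floor, the contrast that chose SERPINB4. SERPINB1 had no tested probe, so no gene could be ranked against it.

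**Figure D4:**
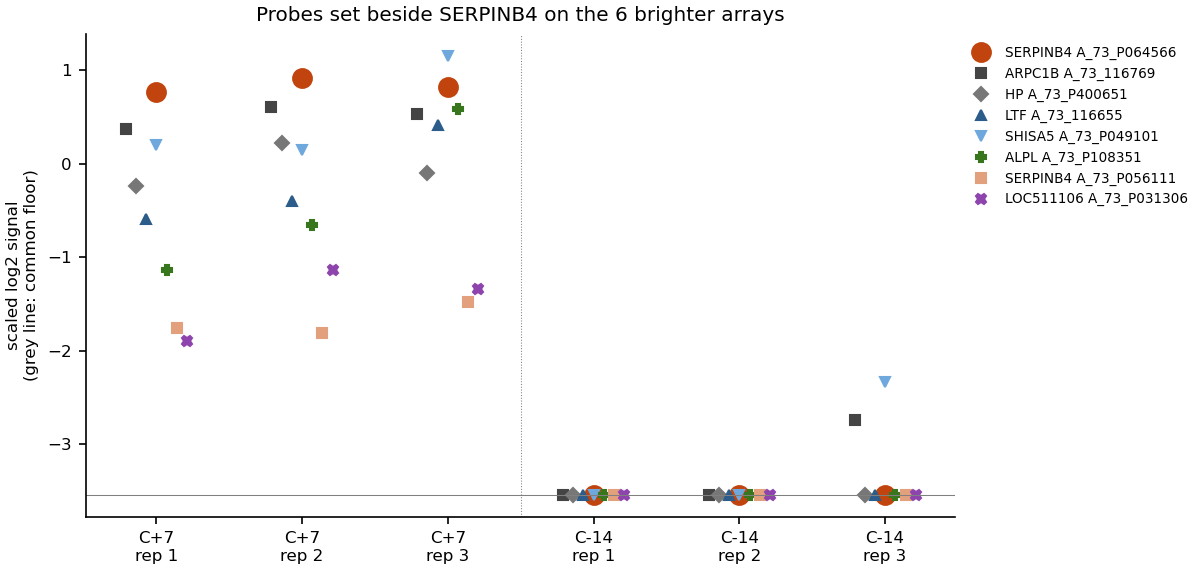
Scaled log2 signal (y axis) of SERPINB4 A_73_P064566, its second bright probe, the 5 closest genes and LOC511106 on the 3 C+7 arrays (left) and 3 C-14 arrays (right) of the brighter set, with the common floor as a line. At C-14 all lie at the floor except ARPC1B and SHISA5 on replicate 3.

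Genes of the proteases and inhibitors that serpins belong with were counted from the same fit of the 6 brighter arrays, with limma's adjusted p over all 2204 probes, whose calls are 5.08% of those tested and whose median difference was -0.07. Among serpins of other clades SERPINF1 was at 0.12 and SERPINA12 at 0.38 (log2), neither past the threshold. Of the serine proteases of granules and cytotoxic cells, which include targets of human SERPINB1, 3 of 13 were on the array and none was tested. Of the 6 cathepsins tested none passed (median -0.91): CTSS was at -2.08 (adjusted p = 0.0532, and -0.99 on its other probe) and CTSF at 1.22. CTSS did pass without C-14 replicate 1 (-2.42), and was at -0.74, not passing, with C-14 replicate 4 added. Among inflammasome genes CASP4, a caspase that senses bacterial lipopolysaccharide in humans, fell (-1.58 ± 0.15 SE, adjusted p = 0.0150). It lay at the floor on all 3 C+7 arrays and entered the test through C-14 alone, so the size, SE and p depend on the floor, and with the floor lowered by 1 it was at -2.44. IL1B was at -0.57 and NINJ1 at -0.09, with a median of -0.57 over the 3. CASP4 lost its call without C+7 replicate 2 (-1.56) or 3 (-1.78).

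For NADPH oxidase and the formation of extracellular traps, 2 genes were tested and none passed: PADI4, which citrullinates histones, at 0.55 and NCF1, an oxidase subunit, at 0.38 (median 0.47). The other protease inhibitors tested were PEBP1 at -0.41 and SPINT2 at 0.30, neither past the threshold (median -0.05). Of the 10 granule cargo genes tested, CATHL2 at 1.48, BPI at -0.02, LYZ at -0.38 and CHI3L1 at -0.67 did not pass. The other 6 passed, all of them higher at C+7 (median over the 10 tested, 1.71). They included HP (3.5), LTF (3.35, and 1.80 on its other probe), PGLYRP1, a peptidoglycan-binding protein (2.41), MMP9, a gelatinase (2.11), and RETN, resistin (1.73, but 0.03 on its other probe). HP, LTF, PGLYRP1 and MMP9 lay at the floor on all 3 C-14 arrays, with no spread there. Their differences are therefore lower limits set by the floor, and their p-values leave out any spread at C-14. With the floor lowered by 1 these differences were 4.31 for HP, 4.35 for LTF, 3.41 for PGLYRP1 and 3.11 for MMP9. HP, LTF, PGLYRP1, MMP9 and RETN all entered the test through C+7 alone. Of the brighter C-14 arrays, HP was well above background on 1, RETN on 2 and the others on none. Of the 8 list genes called with all 6 arrays, 1 was called without C+7 replicate 2 and 2 without C+7 replicate 3. PGLYRP1 also lost its call when any C-14 array was left out (2.40 to 2.47).

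**Figure D5:**
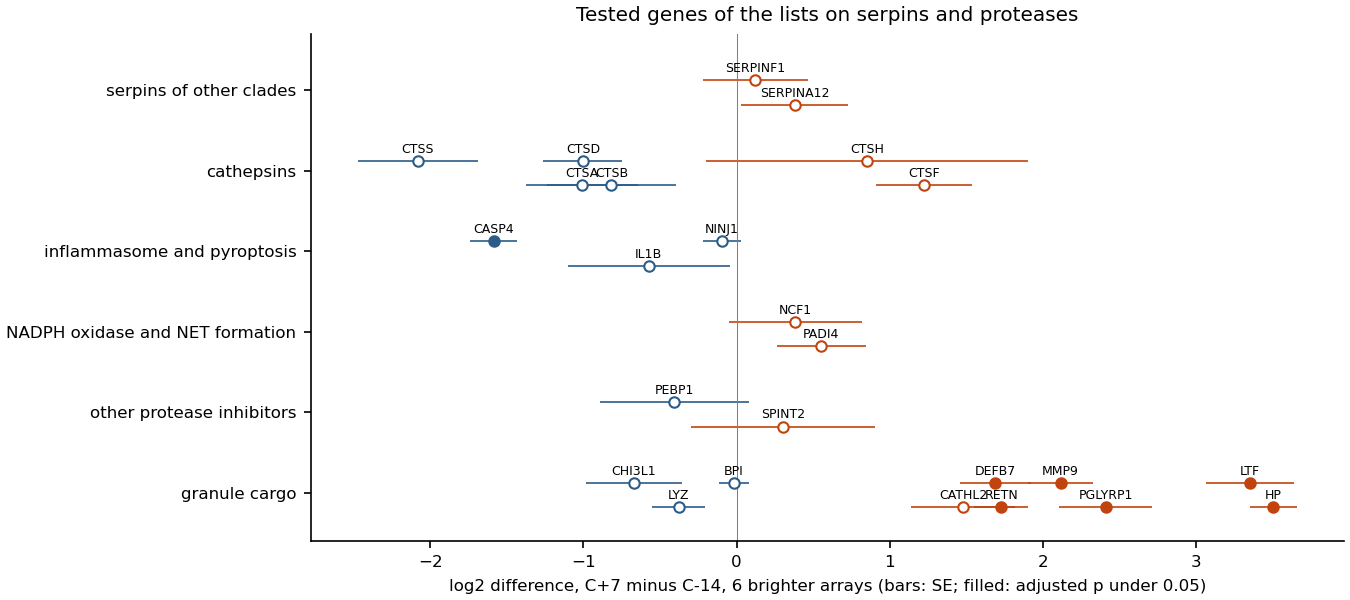
Log2 difference, C+7 minus C-14, on the 6 brighter arrays (x axis, bars are SE) for tested genes of 6 gene lists (rows). Filled points have an adjusted p under 0.05: 6 granule cargo genes above 0, and CASP4 below 0.

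Markers of some other cell types also differed between the times. On the brighter arrays the summed scaled signal of the neutrophil markers was 70.9 to 84.0 at C+7 and 12.6 to 25.5 at C-14, and S100A12, higher at C+7 on its brightest probe (2.27, against 0.54 on its other probe), made up nearly all of it and alone of 6 tested passed. Of the others TREM1 was at 1.52, S100A9 at 0.69, CXCR2 at -0.08, CEBPE at -0.31 and CXCR1 at -1.27. T cell markers summed to 1.13 to 1.34 at C+7 and 3.92 to 4.46 at C-14, with CD247 and CD3E of 3 tested lower at C+7. Eosinophil markers summed to 0.140 to 0.169 at C+7 and 1.04 to 1.37 at C-14, with ALOX15 the 1 tested and lower at C+7. Of 8 eosinophil markers listed, 3 were on the array, and CCR3 and RNASE2 were never well above background. That sum therefore rests mainly on ALOX15. Monocyte markers summed to 0.225 to 0.259 at C+7 and 0.585 to 1.00 at C-14, with CSF1R lower at C+7, and NK cell markers to 0.144 to 0.201 at C+7 and 0.324 to 0.554 at C-14, with GNLY of 2 lower at C+7. CD3E and GNLY lay at the floor on all 3 brighter C+7 arrays and entered the test through C-14 alone. The sizes and p-values of their differences therefore depend on the floor. B cell markers summed to 0.535 to 0.860 at C+7 and 0.365 to 1.14 at C-14, with none of 2 tested called, and erythroid markers to 1.24 to 2.51 at C+7 and 0.376 to 1.23 at C-14, with HBA the 1 tested and not called (adjusted p = 0.232). Epithelial markers, of interest since human SERPINB4 is known from epithelium, summed to 0.531 to 0.937 at C+7 and 0.367 to 1.22 at C-14. Of these, 2 were tested and none called, KRT19 at -0.61 and KRT8 at 0.22. KRT8, KRT14, KRT18 and KRT19 were well above background on at least 1 array, while KRT5, KRT10, EPCAM and CDH1 never were. KRT19 was well above background on all 6 brighter arrays. Platelet markers were at or near 0. The part of these cells in the SERPINB4 and SERPINB1 values was not tested, and these markers were chosen for mention after their values were seen.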

How the data were processed

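The deposited scanner files hold spot intensity per array, written by Agilent Feature Extraction 10.10.1.1 with protocol GE1_1010_Sep10 and, per the file headers, annotation on UMD_3.1. The submitters' processing notes give version 9.1. The authors' deposited series matrix holds relative log2 values with rows not named by probe, and it served as an alternative. To match it, log2 processed intensity was reduced by each array's 75th percentile and centred on each probe's median over arrays. With the row alignment that matched best, 99.8% of 43711 rows lay within 0.01. Probe accessions were named through RefSeq genes (26832 probes). Control spots and outlier-flagged spots were left out. On all 8 arrays, log2 processed intensity was reduced by its 75th percentile over 118 probes well above background everywhere; on 6 arrays, as the report describes, over 1111 probes. Tests used limma 3.58.1 in R 4.3.3 with Benjamini-Hochberg adjustment over all tested probes. The fit was run on simulated normal values with no floor, so that check does not cover probes at the floor. The genes named were every member probe, the called genes of each list (up to 5, otherwise the 2 with the greatest differences), clade B genes seen above background, and the 5 closest profiles. Granule cargo genes tested but not called were also named. Members, lists and the set of 6 brighter arrays were chosen with earlier results of these data known. One called list gene is counted in the totals and not reported here.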

Additional observations from a re-analysis of the deposited data

Results flagged for a closer look

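One array stood apart from its group. On C-14 replicate 3, 0.00228% of spots had the lowest processed intensity, while the share was 73.4 to 80.4% on the other C-14 arrays, and on that array the processed SERPINB1 value was 0.102 times its subtracted value. Of 24 groups of 4 values examined this way, 1 stood apart. By chance alone the rule flags about 1 in 20. That rate is not applied to this array, where the processed intensity included the surface correction.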

How the results depend on the processing

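SERPINB4 A_73_P064566 was higher at C+7 under all alternatives run. On 8 arrays its difference of 6.62 became 1.28 with subtracted intensity and 2.87 with normexp, and 5.30 to 7.60 when an array was left out. On 6 arrays its 4.38 became 3.70 with normexp, 4.53 with scaling over all probes, 4.50 with quantile normalization, 9.25 in the series matrix, 5.38 with the floor lowered by 1, and 1.62 with C-14 replicate 4 added, which also raises the floor, and 4.33 to 4.61 when an array was left out. SERPINB1 on 6 arrays became 1.12 with normexp and 1.63 in the series matrix, and 0 whichever array was left out; on 8 arrays it ran from -0.31 (quantile) to 1.67. The count of 112 called probes became 12 with processed intensity, 69 with normexp (65 higher, 4 lower), 4 in the series matrix, 9 with C-14 replicate 4 added, 177 with array weights, 1 with no filter, 72 with the brightest probe per gene, 52 among probes above background on all 6 arrays (an alternative added after seeing the data), and 4 to 167 when an array was left out. Scaling over all probes gave 17 higher and 99 lower. The brightest probe per gene left 1392 probes tested, as all probes without a gene symbol were treated as 1 gene. The median difference of tested probes on 6 arrays, -0.07, became 0.67 with normexp, -0.58 with scaling over all probes and 1.03 in the series matrix. On 8 arrays 14 probes were called with array weights, 1 with no filter and 0 to 1 when an array was left out. The 8 list genes called became 4 with processed intensity, 5 with normexp, 1 in the series matrix, 1 with C-14 replicate 4 added, 0 with no filter and 2 among probes above background on all 6 arrays, and 1 to 8 when an array was left out. CASP4 lost its call under several of these, while CTSS gained one with scaling over all probes (-2.69), quantile (-2.05), the floor lowered by 1 (-2.08) and array weights (-1.89). Of uncalled genes, NCF1 turned to -0.87 with processed intensity and -0.39 in the series matrix, PEBP1 to 0.40 with normexp and 0.88 in the series matrix, SPINT2 to -0.31 with scaling over all probes and -0.21 with C-14 replicate 4 added, SERPINF1 to -0.49 with scaling over all probes and SERPINA12 to -0.88 with processed intensity; with an array left out they ranged from -0.075 to 0.72 (NCF1), -0.72 to 0.12 (PEBP1), -0.29 to 0.61 (SPINT2) and -0.11 to 0.36 (SERPINF1). Causes were not tested. With the replicate number as a block, 0 of 2204 probes and 0 list genes were called on 6 arrays and 0 on 8. Whether the numbers pair the arrays was not settled. With each probe's mean at its time subtracted, the deviations of same-numbered arrays correlated at 0.58, 0.22, -0.26 and 0.49 on 8 arrays. On 6 arrays these deviations correlated at 0.05, -0.26 and 0.26, and differently numbered arrays were not compared. Normexp used the median spot signal, since the files hold no mean. Signal near background limits SERPINB1 and the dark SERPINB4 probes.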
